A study of Mus musculus with 4 samples.

Results

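6 genes of the hedgehog pathway were followed in mouse brain: Smo, which encodes Smoothened, its pathway partners Sufu, Gas1 and Disp1, and the growth genes Mycn and Ccnd1. They were picked by symbol from a deposited table of 5282 genes, where each of the 6 has a row. RNA came from dissected pieces of corpus callosum with cortex, taken on postnatal day 15. 2 samples carried Pdgfra-creER;SmoM2 and 2 were wild type (WT) littermates, and mice of both groups were given tamoxifen between postnatal days 5 and 7. SmoM2 is a form of Smoothened with 1 exchanged amino acid in its last membrane-spanning helix, which keeps it active without ligand. Pdgfra-creER is a recombinase that tamoxifen switches on in cells with Pdgfra expression, chiefly oligodendrocyte precursors and fibroblasts, so in this tissue only part of the cells could carry the active form. The sources used here give neither the locus that holds the SmoM2 allele nor whether each sample was its own animal. P-values therefore measure the spread between these samples, which may be technical.

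Hedgehog ligands carry a cholesterol group and leave the producing cell through the transporter Disp1. At the receiving cell they bind Patched together with co-receptors such as Gas1, and Patched then stops blocking Smoothened, which moves into the primary cilium. Active Smoothened frees the Gli transcription factors from Sufu, the protein that restrains them. Mycn, a transcription factor of cell growth, and Ccnd1, the cyclin D1 gene that carries cells through G1 phase, are well known targets of the pathway in dividing neural precursors. In the oligodendrocyte lineage, hedgehog signalling is known for its part in the origin of precursors and in keeping them from maturing.

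Sequence around the start site was available for 5 of the 6 genes from RefSeq (GRCm38.p6), as 250 bases before and 50 bases from the start, on the strand of the gene. 3 are shown: Smo, Mycn and Gas1. SmoM2 is a form of the Smo product, and whether the Smo window drives that allele is not known. Mycn is a growth target that rose. Among the 6 genes, Gas1 had the profile over the samples closest to that of Mycn. Capitals mark letters of a motif that was searched on both strands. The windows are chr6:29735247-29735546 (plus strand) for Smo, chr12:12941787-12942086 (minus strand) for Mycn and chr13:60177486-60177785 (minus strand) for Gas1.
Smo: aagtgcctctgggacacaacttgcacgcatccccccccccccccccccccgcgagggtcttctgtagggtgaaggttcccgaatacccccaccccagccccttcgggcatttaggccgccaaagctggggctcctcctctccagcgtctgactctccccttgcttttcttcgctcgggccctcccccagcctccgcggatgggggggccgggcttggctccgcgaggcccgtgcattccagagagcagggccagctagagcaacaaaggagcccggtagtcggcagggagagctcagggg
Mycn: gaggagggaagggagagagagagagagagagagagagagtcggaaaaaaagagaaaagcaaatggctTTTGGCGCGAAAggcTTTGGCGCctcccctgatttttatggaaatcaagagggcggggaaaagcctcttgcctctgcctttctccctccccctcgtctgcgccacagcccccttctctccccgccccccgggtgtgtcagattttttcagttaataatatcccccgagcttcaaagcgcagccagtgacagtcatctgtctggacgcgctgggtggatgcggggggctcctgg
Gas1: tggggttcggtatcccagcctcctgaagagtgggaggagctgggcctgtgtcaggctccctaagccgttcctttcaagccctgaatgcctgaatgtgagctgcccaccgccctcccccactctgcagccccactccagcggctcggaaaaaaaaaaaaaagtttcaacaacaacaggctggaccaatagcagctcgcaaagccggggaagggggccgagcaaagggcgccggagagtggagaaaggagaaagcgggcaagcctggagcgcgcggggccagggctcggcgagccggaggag

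The motifs searched were GACCACCCA for Gli factors, CACGTG for the E-box that Myc proteins bind, TTTGGCGC or TTTCGCGC for E2F factors, TATAAA for the TATA box and TGACGTCA for the cyclic AMP element. The Mycn window held 3 E2F matches, 2 of TTTGGCGC and 1 of TTTCGCGC on the opposite strand. Counted from the start, they begin at -183, -179 and -168, and the first and second share letters. An E2F match was present in 0.813% of all 32851 promoter windows. The windows of the 5 genes held no match to the other 4 motifs. Gli, E-box, TATA and cyclic AMP matches were present in 0.253%, 7.15%, 13.6% and 1.79% of all windows. The share of G and C was 67.7% for Smo, 62.3% for Gas1 and 56.7% for Mycn, against a median of 52.7% over all windows.

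Every value below is the authors' expression level, taken here to be scaled for gene length and library size because the processing notes name RSEM and sums per sample are alike. No source says if this is TPM or FPKM, and depth per sample is unknown. The table had been filtered by the authors to an unadjusted p of at most 0.05. A row thus already means a difference between the groups, and the 6 genes were named from it with results known, so their direction and lack of overlap are a description. "Rose" and "fell" are used where the adjusted p in the authors' deposited table was 0.05 or less, a threshold passed by 37.3% of the listed genes. By direction, 21.3% of the listed genes were called higher and 16% lower in SmoM2. Per sample, the listed levels added up to 469062 at the lowest and 512833 at the highest. Genes of the labelled tissue had levels above 0 in every sample, among them all 12 of a myelinating oligodendrocyte list and the 5 of 10 neuronal genes with a row. In bulk tissue, a change in the number of cells of a type and a change in RNA per cell cannot be told apart.

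Smo, Mycn and Ccnd1 rose in SmoM2 samples, by a factor of 1.36 to 1.57 in the authors' deposited table, and Sufu, Gas1 and Disp1 were higher without passing, by a factor of 1.32 to 1.45. 3 of 6 genes were thus called, beside 37.3% of all listed genes. In all 6 genes both SmoM2 samples lay above both WT samples, a pattern seen in 49.5% of the listed genes. The median of the 6 log2 fold changes was 0.48, against 0.46 for all 2808 listed genes with a positive value and 0.23 for the whole table. In size the 6 genes were thus near the middle of the listed genes that were higher.

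Smo (ENSMUSG00000001761, chromosome 6, 29735503 to 29761365, GRCm38, plus strand) had levels of 10.73 and 10.96 in the SmoM2 samples, against 7.12 and 5.75 in the WT samples. The SmoM2 samples nearly coincided while the WT samples stood 1.37 apart, and the gap of 3.61 between the nearest samples of the groups exceeded both distances. Its mean was 10.8 ± 0.163 in SmoM2 and 6.44 ± 0.969 in WT (n = 2 a group, ± SD). The authors' deposited table lists its log2 fold change as 0.65 and adjusted p as 0.00146, the smallest p of the 6 and number 782 in the order of p over the table. limma on log2(level + 1) gave a difference of 0.68 ± 0.16 (SE), with a 95% interval of 0.28 to 1.07. The limma differences and intervals given here were not corrected for the selection of rows by p in these same samples. They are a description, and an interval that leaves out 0 is no test. The Smo row sums whatever reads matched that gene. How far the SmoM2 allele adds to it was not tested.

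**Figure D1:**
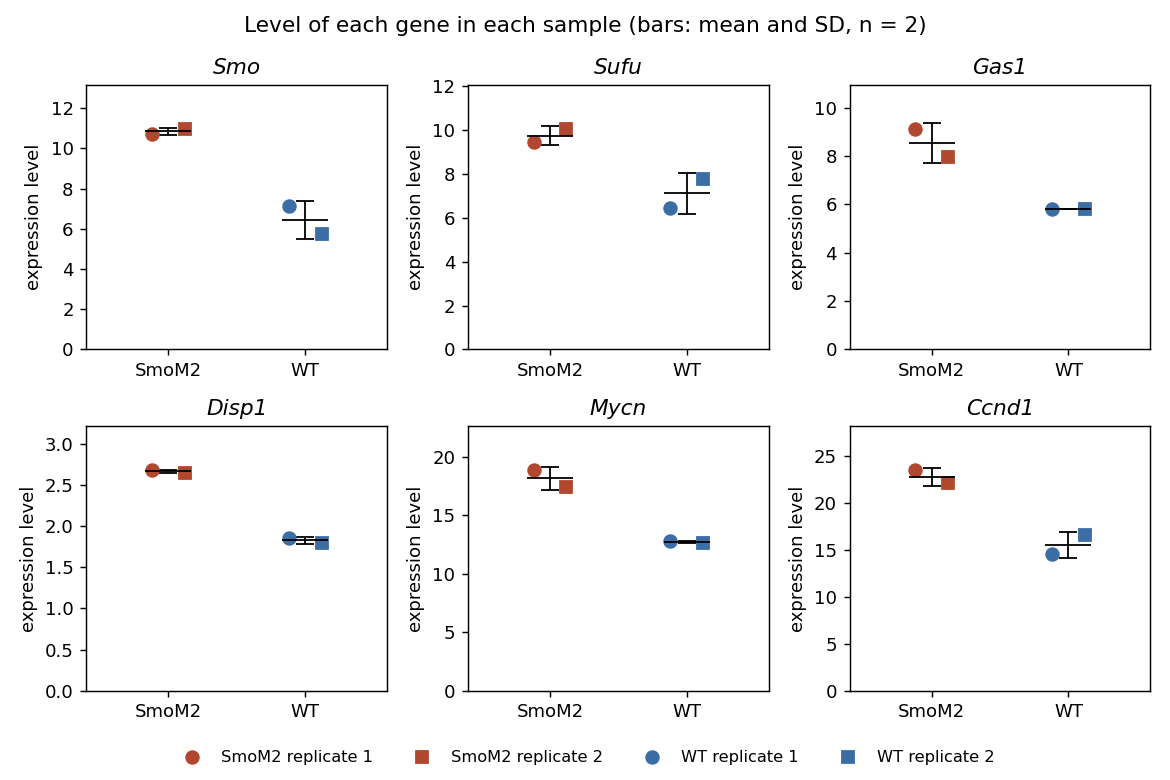
Expression level (vertical axis from 0, authors' unit) of each of the 6 genes in the 2 SmoM2 samples (red, left) and the 2 WT samples (blue, right), with mean and SD as black bars (n = 2 each). Both SmoM2 samples lie above both WT samples in every panel, with a gap of 3.61 for Smo and 0.79 for Disp1.

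Gas1, the co-receptor that helps ligand reach Patched, had levels of 9.12 and 7.97 in SmoM2 samples, against 5.82 and 5.81 in WT samples. The WT samples were almost equal, and the SmoM2 samples were 1.15 apart with replicate 1 higher. Its mean was 8.54 ± 0.813 in SmoM2 and 5.82 ± 0.00707 in WT (n = 2 a group, ± SD). Gas1 did not pass: the authors' deposited table lists 0.48 (log2) and adjusted p = 0.162. The limma difference was 0.48 ± 0.16 (SE), with a 95% interval of 0.10 to 0.87. Gas1 (ENSMUSG00000052957) is a gene of 1 exon on chromosome 13 from 60174405 to 60177365, minus strand.

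Sufu, the inhibitor that holds Gli factors back, had levels of 9.44 and 10.05 in SmoM2 samples, against 6.45 and 7.78 in WT samples. The nearest samples of the groups were 1.66 apart, not far above the distance of 1.33 between the WT samples. Its mean was 9.74 ± 0.431 in SmoM2 and 7.12 ± 0.940 in WT (n = 2 a group, ± SD). The authors' deposited table lists 0.41 (log2), the smallest change of the 6, and adjusted p = 0.137. The limma difference of 0.41 ± 0.16 (SE) had a 95% interval from 0.02 to 0.80. Sufu (ENSMUSG00000025231) spans chromosome 19 from 46396896 to 46488804, plus strand.

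Disp1, which exports the lipid-modified ligand, had levels of 2.68 and 2.65 in SmoM2 samples, against 1.86 and 1.8 in WT samples. Samples of a group agreed closely, within 0.03 in SmoM2 and 0.06 in WT, at the lowest level of the 6 genes. Its mean was 2.67 ± 0.0212 in SmoM2 and 1.83 ± 0.0424 in WT (n = 2 a group, ± SD). The authors' deposited table lists 0.54 (log2) and the highest adjusted p of the 6, 0.387. On the log2(level + 1) scale, which compresses low levels, limma gave 0.37 ± 0.21 (SE) and a 95% interval of -0.13 to 0.88 that includes no difference. Disp1 (ENSMUSG00000030768) spans chromosome 1 from 183086266 to 183221522, minus strand.

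Ccnd1 had the highest level of the 6, with 23.53 and 22.17 in SmoM2 samples, against 14.58 and 16.57 in WT samples. The gap of 5.6 between the groups was larger than the 1.36 between the SmoM2 samples and the 1.99 between the WT samples. Its mean was 22.9 ± 0.962 in SmoM2 and 15.6 ± 1.41 in WT (n = 2 a group, ± SD). Ccnd1 rose by 0.47 (log2; adjusted p = 0.00320, authors' deposited table), and limma gave 0.53 ± 0.13 (SE) with a 95% interval of 0.22 to 0.84. Ccnd1 (ENSMUSG00000070348) lies on chromosome 7 from 144929931 to 144939925, minus strand, and 1771 of its bases overlap LTO1 on the opposite strand. LTO1 had no row, and the sources used here do not say if counting used strand, so reads of that overlap cannot be assigned. The same holds for the 684 bases that Gas1 shares with Gm48488 on the opposite strand. Smo shares 365 bases with Gm13717 and Disp1 1487 bases with BC085271, each on the same strand, where strand could not separate them. These noncoding or pseudogene entries also had no row. All overlaps, that of LTO1 included, were measured between whole gene spans with their introns.

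Mycn had levels of 18.85 and 17.46 in SmoM2 samples, against 12.79 and 12.66 in WT samples. The WT samples differed by 0.13 and the SmoM2 samples by 1.39, and the groups stood 4.67 apart. Its mean was 18.2 ± 0.983 in SmoM2 and 12.7 ± 0.0919 in WT (n = 2 a group, ± SD). Mycn rose by 0.44 (log2), just inside the threshold (adjusted p = 0.0473, authors' deposited table). limma gave 0.48 ± 0.12 (SE) with a 95% interval of 0.18 to 0.78. Mycn (ENSMUSG00000037169) lies on chromosome 12 from 12936093 to 12941914, minus strand, with no other gene of the annotation across it, and its annotated start is upstream of the RefSeq start used for the window above.

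The same limma fit over the 4845 genes whose mean level reached 1, adjusted over the 57010 tests behind the authors' adjusted p, called none of the 6 and 6 of all fitted genes, 0.124%. Adjusted p ran from 0.407 for Smo and Ccnd1 to 1 for Disp1 (limma), and 5 of the 6 had an unadjusted limma p of at most 0.05, as did 2687 of the 4845. A two-sided exact permutation test over the samples gave p = 0.333 for each of the 6, the smallest value that 2 samples against 2 can give.

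**Figure D2:**
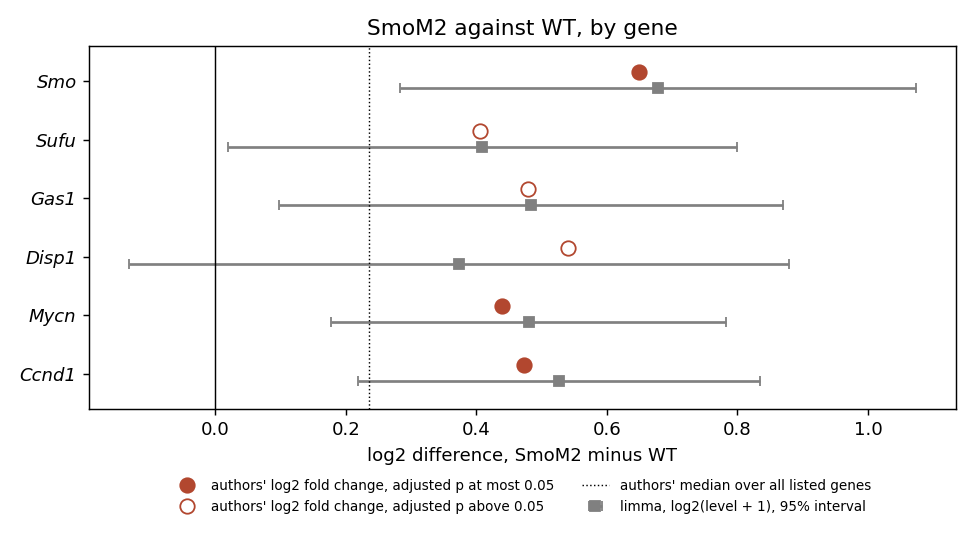
Log2 difference, SmoM2 minus WT, for each gene: circles are the authors' log2 fold changes (filled at an adjusted p of at most 0.05) and squares the limma difference on log2(level + 1) with its 95% interval, beside the authors' median over all listed genes at 0.23 (dotted). Smo lies farthest to the right, and the interval of Disp1 crosses 0. Intervals are not corrected for the selection of rows by p in these same samples.

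Among themselves the 6 genes kept nearly the same order in both groups. Averaged over the 4 samples the level per length was highest for Ccnd1, then Mycn, Smo, Sufu, Gas1 and Disp1. Smo and Sufu were the neighbours not set apart in both groups: Smo was above Sufu in both SmoM2 samples, and in WT samples their levels overlapped. Levels of all the other neighbours in that order were apart in every sample of either group. The ratio of Smo to Sufu was 1.14 and 1.09 in SmoM2 samples and 1.10 and 0.739 in WT samples, so the groups overlapped and WT replicate 2 was the low one. Scaling of the library cancels in such ratios. The ratio of Mycn to Smo was 1.76 and 1.59 in SmoM2 samples, against 1.8 and 2.20 in WT samples. That of Disp1 to Smo was 0.250 and 0.242 in SmoM2 samples, against 0.261 and 0.313 in WT samples. Each was lower in both SmoM2 samples, but the gap between the groups was smaller than the distance between the WT samples. The ratios of Gas1 and of Ccnd1 to Smo overlapped between the groups.

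Profiles over the 4 samples were compared by the root mean square difference of centred log2(level + 1) values, against 4008 other listed genes whose mean level reached 5. Closest to Smo were D630023F18Rik at 0.0135, Tmem158 at 0.0200 and Fgfrl1, a receptor of the fibroblast growth factor family, at 0.0258. Fgfrl1 had levels of 26.16 and 26.84 in SmoM2 samples, against 18.68 and 14.80 in WT samples, so that like Smo it was lower in WT replicate 2 than in WT replicate 1. Closest to Mycn were Gse1 at 0.0101, Zfta at 0.0127 and Fbxl15 at 0.0131, and Gas1 was number 18 at 0.0249. Closest to Ccnd1 were Scrt1, a transcriptional repressor of neurons, at 0.00313, then Tbcc at 0.0186 and Gm56350 at 0.0206. A profile of 4 samples is easily matched: 149 genes lay within 0.1 of Smo, 685 of Mycn and 537 of Ccnd1.

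The other genes of the pathway lay on both sides of 0. Of 50 hedgehog components counted in 3 lists, 13 had a row, 9 of them higher in SmoM2. Smo, Sufu, Gas1 and Disp1 are among these 9. 3 of the 13 passed, Smo, Gpc3 and Cul3, beside 37.3% of all listed genes. Among ligand and release genes 2 of 9 had a row, Disp1 and Scube3, a secreted helper of ligand release, and neither passed. Among receptors and co-receptors 3 of 10 had a row, Smo, Gas1 and Gpc3. Their median log2 fold change of 0.65 is the value of Smo itself. Gpc3, a glypican that in mouse binds hedgehog ligand and limits its action, rose, with levels of 5.31 and 5.89 in SmoM2 samples, against 3.11 and 2.84 in WT samples (adjusted p = 0.0329, authors' deposited table). Of 31 transduction and cilium genes counted, 8 had a row, with log2 fold changes from -0.43 to 0.62.

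Cul3 was the one of those 8 that passed, beside 37.3% of all listed genes, and it fell. Cul3, the scaffold of a ubiquitin ligase that acts on Gli proteins, had levels of 71.13 and 57.54 in SmoM2 samples, against 77.53 and 89.38 in WT samples (adjusted p = 0.00338, authors' deposited table). Its limma difference of -0.37 was -0.22 without SmoM2 replicate 2. The protein kinase A subunit genes Prkacb and Prkar1a and the casein kinase gene Csnk1a1, whose kinases mark Gli proteins for processing, had log2 fold changes of -0.23, -0.18 and -0.26 without passing. Without WT replicate 2 the limma difference of Csnk1a1 was -0.03 instead of -0.15, and that of Prkacb was -0.09 instead of -0.15, as it also was without SmoM2 replicate 1. Without WT replicate 1 that of Csnk1a1 was -0.26. Gnas, Stk36, Iqce and Sufu had log2 fold changes from 0.20 to 0.62 without passing. The upper end was Stk36, whose limma difference of 0.49 was 0.24 without WT replicate 2 and 0.74 without WT replicate 1. The 0.30 of Iqce was 0.16 without SmoM2 replicate 2 and 0.18 without WT replicate 1.

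In a list of 22 targets of the pathway, 9 had a row, and 5 of these rose, beside 21.3% of all listed genes called higher. The median log2 fold change was 0.47, the value of Ccnd1, and 2 of the 9 had negative values. Mycn and Ccnd1 were 2 of the 5. The other three were Foxc1, Foxc2 and Spp1, and both Foxc genes are also in the leptomeningeal fibroblast list, whose members rose. Spp1 had levels of 10.48 and 4.47 in SmoM2 samples, against 2.86 and 3.21 in WT samples, and its limma difference of 0.98 was 0.44 without SmoM2 replicate 1 and 1.51 without SmoM2 replicate 2. Foxc1 had levels of 3.04 and 1.74 in SmoM2 samples, against 1.34 and 1.44 in WT samples, and its difference of 0.48 was 0.20 without SmoM2 replicate 1 and 0.76 without SmoM2 replicate 2. Foxc2 stayed at low levels, with 1.68 and 1.03 in SmoM2 samples, against 0.45 and 0.03 in WT samples. Mycn and Ccnd1 had limma differences of 0.43 and 0.49 without SmoM2 replicate 1. The negative ones did not pass. Nkx6-2, a homeobox gene of the oligodendrocyte lineage, had levels of 4.16 and 4.24 in SmoM2 samples, against 6.81 and 7.15 in WT samples, without overlap, and a log2 fold change of -0.76 (adjusted p = 0.0990, authors' deposited table), larger in size than those of Mycn and Ccnd1. Bmi1 had a log2 fold change of -0.36 and levels that overlapped, and its limma difference of -0.24 ran from -0.45, without WT replicate 1, to -0.03, without WT replicate 2. Olig2 and Nkx6-1 did not pass either, with Nkx6-1 at 0.22 or less in every sample and listed at 0 in 1 WT sample. Gli1, Ptch1 and Hhip, the transcripts most used as readouts of the pathway, had no row and were not analysed here.

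Ccnd1 stood in a list of cell cycle entry genes of which few had a row. Of 23 genes for D-type cyclins, their kinases and inhibitors and the Rb-E2F switch, 6 had a row, with a median log2 fold change of 0.32. Ccnd1 was the one of these 6 that passed, beside 37.3% of all listed genes. Ccnd3, the related cyclin D3 gene, had levels of 33.59 and 26.96 in SmoM2 samples, against 18.95 and 27.41 in WT samples, so its groups overlapped, and its limma difference of 0.39 was 0.23 without SmoM2 replicate 1, 0.13 without WT replicate 1 and 0.64 without WT replicate 2. Cdkn2d, an inhibitor of the cyclin D kinases, had levels of 89.76 and 90.90 in SmoM2 samples, against 68.54 and 71.02 in WT samples, without overlap and without passing (adjusted p = 0.205, authors' deposited table). Ccne2, the gene of cyclin E2, had levels of 2.50 and 3.45 in SmoM2 samples, against 3.62 and 7.66 in WT samples, and did not pass. Its limma difference of -0.68 was -0.23 without WT replicate 2 and -1.13 without WT replicate 1. For the inhibitor genes Cdkn1b and Cdkn2c, the authors' deposited table lists -0.23 and 0.55 (log2), neither of which passed, and their levels overlapped between the groups. Without 1 sample, their limma differences ran from -0.21 to -0.04 for Cdkn1b and from -0.12, without WT replicate 2, to 0.35, without WT replicate 1, for Cdkn2c.

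Genes of the Myc network split by direction. Of 15 Myc family members, partners and antagonists, 8 had a row, 3 rose and 1 fell, with a median log2 fold change of 0.33. Of all listed genes, 21.3% were called higher and 16% lower. Myc, the family's founding member, rose more than Mycn in log2 fold change, 0.84 (adjusted p = 0.000652, authors' deposited table), and the difference between both was not tested. Myc had levels of 14.17 and 14.65 in SmoM2 samples, against 7.88 and 9.86 in WT samples. Mnt, which competes with Myc proteins for their partner Max, had levels of 20.16 and 18.79 in SmoM2 samples, against 13.12 and 13.76 in WT samples, and rose (adjusted p = 0.00709, same table). Fbxw7, the ubiquitin ligase subunit that targets Myc proteins for breakdown, fell, with 91.54 and 97.86 in SmoM2 samples, against 107.67 and 124.20 in WT samples (adjusted p = 0.00487, same table), and its limma difference of -0.29 was -0.18 without WT replicate 2.

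Mycl, the third Myc gene, had levels of 28.99 and 31.17 in SmoM2 samples, against 24.41 and 23.38 in WT samples, without passing (adjusted p = 0.510, authors' deposited table). The Max partners Mxd1, Mxd3 and Mxi1 had log2 fold changes of -0.34, 1.16 and -0.27 without passing. The limma difference of Mxd3, 0.75, was 0.48 without WT replicate 1, and that of Mxi1, -0.18, was -0.11 without SmoM2 replicate 2 and -0.10 without WT replicate 2. Of 15 growth genes that Myc proteins are known to bind, 7 had a row, with a median log2 fold change of 0.20. Cad was the one of these 7 that passed, beside 37.3% of all listed genes. Cad, an enzyme of pyrimidine synthesis, had levels of 5.42 and 5.23 in SmoM2 samples, against 2.60 and 3.55 in WT samples (adjusted p = 0.00019, authors' deposited table). Ncl, Nop58 and Eif4e had negative and Srm, Fbl and Ldha positive log2 fold changes, between -0.31 and 0.36. None of these 6 passed. Without 1 sample, the limma difference of Nop58 ran from -0.21 to 0.13, that of Eif4e from -0.18 to 0.01 and that of Ncl from -0.28 to -0.09.

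**Figure D3:**
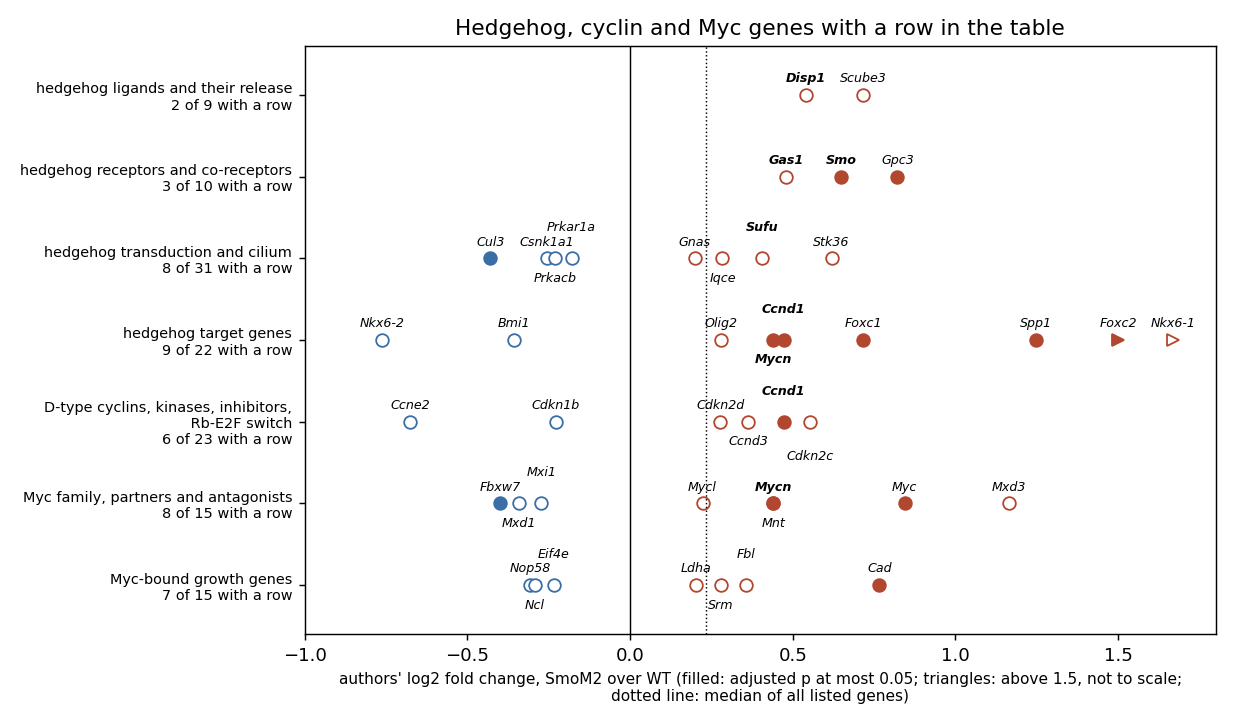
Authors' log2 fold change, SmoM2 over WT, of each gene with a row in 7 lists (higher in red, lower in blue, filled at an adjusted p of at most 0.05, the 6 genes of this account in bold, triangles above 1.5 not to scale). Receptor genes lie to the right of the dotted median of all listed genes at 0.23, while the transduction and Myc lists lie on both sides of 0.

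Genes beside the 6 on the chromosome lay on both sides of 0. Of their 12 nearest protein-coding neighbours, 6 had a row and 1 of these passed. Of all listed genes, 37.3% passed and 53.2% had a positive log2 fold change in the authors' deposited table. Among the 6 neighbours, 2 had a positive and 4 a negative log2 fold change there. Of those 4, Fam49a had overlapping levels, with 123.46 and 122.92 in SmoM2 samples, against 118.85 and 125.42 in WT samples. The mean of these levels was slightly higher in SmoM2, opposite in direction to its listed log2 fold change of -0.25. The gene that passed was Trim8, 12898 bases from Sufu, with levels of 52.43 and 48.38 in SmoM2 samples, against 33.65 and 36.99 in WT samples. Ahcyl2, 6646 bases from Smo, had levels of 35.47 and 36.23 in SmoM2 samples, against 39.00 and 41.43 in WT samples, opposite in direction to Smo and without passing.

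Markers of several cell types differed between the groups along with the 6 genes. The counts called are to be read beside the 21.3% of all listed genes called higher and the 16% called lower. Myelinating oligodendrocyte genes had 12 of 12 members with a row, all 12 called lower, with a median log2 fold change of -1.27 and summed levels of 3064 and 3454 in SmoM2 samples, against 6408 and 6022 in WT samples. Oligodendrocyte precursor genes had 8 of 13 members with a row, 3 that rose, 1 that fell and 4 that did not pass. Their summed levels were 653 and 627 in SmoM2 samples, against 499 and 489 in WT samples. Leptomeningeal fibroblast genes had 11 of 12 members with a row, all 11 called higher and none listed at 0. Their summed levels were 1894 and 1943 in SmoM2 samples, against 1052 and 425 in WT samples. Most of each sum was Ptgds, at 1641.07 and 1727.5 in SmoM2 samples, against 933.18 and 312.88 in WT samples. Col1a1 (14.36 and 7.42), Col1a2 (19.27 and 11.6) and Col3a1 (14.49 and 6.97) were higher in SmoM2 replicate 1 than in replicate 2. Dcn (23.63 and 38.92), Ptgds and Aldh1a2 went the other way, and Col3a1 overlapped between the groups. Pericyte and smooth muscle genes had 5 of 9 with a row, and summed levels of 136 and 113 in SmoM2 samples, against 72.7 and 55.9 in WT samples.

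Olfactory bulb genes had 9 of 10 members with a row, 8 called higher, beside 21.3% of all listed genes called higher. They stood out in SmoM2 replicate 1, with summed levels of 500.5 and 288 in SmoM2 samples, against 191 and 199 in WT samples. Most of each sum was Fabp7, at 314.03 and 193.27 in SmoM2 samples, against 111.06 and 116 in WT samples. Th, Tbx21, Eomes and Sp8 overlapped between the groups. The bulb gene Tbx21 was listed at 0 in 1 WT sample. Without SmoM2 replicate 1 the limma differences were 0.69 for Smo, 0.45 for Sufu, 0.40 for Gas1, 0.37 for Disp1, 0.43 for Mycn and 0.49 for Ccnd1. Choroid plexus genes were lower, with summed levels of 77.4 and 630 in SmoM2 samples, against 1222 and 1186 in WT samples. Nearly all of each sum was Ttr, at 71.24 and 618.04 in SmoM2 samples, against 1202.66 and 1162.48 in WT samples. Blood genes were lower likewise, with summed levels of 65.6 and 120 in SmoM2 samples, against 662 and 450 in WT samples. Astrocyte sums were 1276 and 1191 in SmoM2 samples, against 1402 and 1282 in WT samples, and their 5 genes with a row were mixed: Gfap and Aqp4 were called higher, Slc1a2 was called lower, and Aldoc and S100b did not pass. Neuronal sums overlapped, with Tubb3 called higher and Snap25, Syt1 and Neurod6 called lower. Microglial sums were 420 and 388 in SmoM2 samples, against 307 and 310.1 in WT samples, with C1qb and C1qc called higher and P2ry12 called lower. Endothelial sums overlapped, with Cdh5, Cldn5 and Kdr called higher and Slco1a4 and Ly6c1 called lower. The part of these lists in the differences of the 6 genes was not tested.

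**Figure D4:**
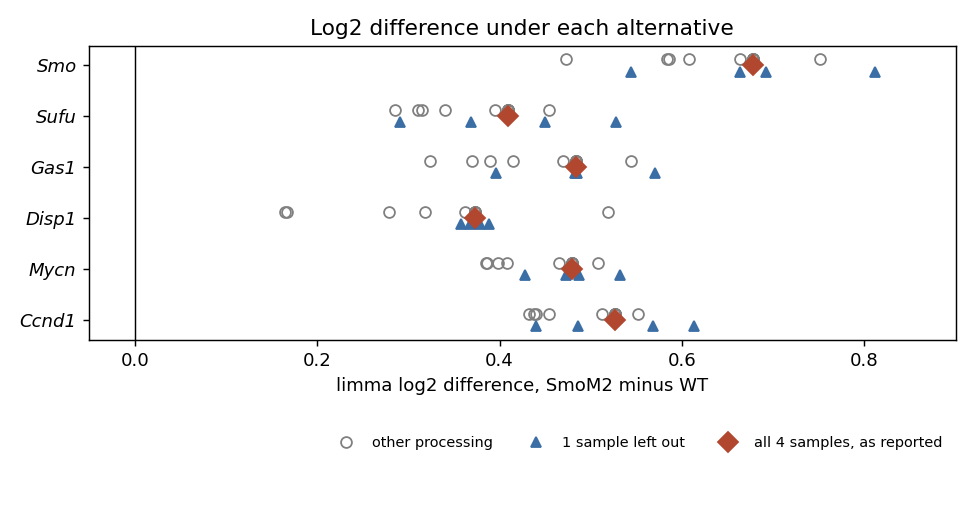
limma log2 difference, SmoM2 minus WT, of each gene with all 4 samples (diamond), with 1 sample left out (triangles) and under other processing (circles). All values lie above 0, from 0.17 for Disp1 to 0.81 for Smo. As the groups did not overlap, only alternatives that rescale the samples could have turned a sign.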

How the data were processed

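Per the labels' protocols, libraries were made with an Illumina TruSeq kit. The submitters' processing notes name RSEM, DESeq2 and GRCm38.p6 and give no version or role for any. The deposited table holds an expression signal per sample, called level here, which is neither whole-number nor named as TPM or FPKM. It also holds the authors' fold change as a ratio and on the log2 scale. The deposited p-value is at most 0.049997 in every row, and an adjusted one stands beside it. Columns were tied to samples by the series text.

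The table holds selected genes and no counts, so the design for levels was used. The 4845 genes of mean level 1 or more entered a limma 3.58.1 fit (R 4.3.3) of log2(level + 1) that used a trended prior variance. Benjamini-Hochberg adjustment counted 57010 tests, the number that the authors' adjusted values imply. The steps were tested on simulated data. Permutation tests used scipy 1.17.1. Coordinates come from GENCODE M21 (GRCm38), which holds 5226 of the listed identifiers.

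The 6 genes and all lists were chosen with earlier results of these data known. Named beside the 6 were called members of the pathway lists, all members with a row where a list had 6 or fewer, and the 3 closest profiles. Other genes were named after their values were seen. Of the marker lists not given a sum in the text, 6 of 8 endothelial and 1 of 6 ependymal genes had a row. Some list members are not reported here and are left out of the lists' counts and the plot.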

Additional observations from a re-analysis of the deposited data

How the results depend on the processing

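Each of the 6 limma log2 differences was positive under every alternative run, 14 planned ones and 1 chosen after seeing the data. In all 6 genes both SmoM2 samples lay above both WT samples. Leaving out a sample, or changing pseudocount, filter, trend, block or adjustment, therefore could not turn a sign. Only the alternatives that rescale the samples could have done so. Values ran from 0.47 to 0.81 for Smo, 0.29 to 0.53 for Sufu, 0.32 to 0.57 for Gas1, 0.17 to 0.52 for Disp1, 0.38 to 0.53 for Mycn and 0.43 to 0.61 for Ccnd1. Disp1 gave no value at a minimum mean level of 5. Leaving out each sample gave 0.54 to 0.81 for Smo, 0.43 to 0.53 for Mycn and 0.44 to 0.61 for Ccnd1, and 0 of the 6 were called each time. With adjustment over the 4845 fitted genes instead of 57010 tests, limma called 3 of the 6, namely Smo, Mycn and Ccnd1. Their adjusted p was 0.0346, 0.0382 and 0.0346 (limma), among 1619 called genes of which 1293 were higher. Fewer tests are counted there, over genes already selected by p in these same samples. That adjustment therefore does not control false calls, and these 3 calls are no independent support. Over all alternatives the adjusted p of each of the 3 ran from those values to 1 (limma). Of the authors' 3 calls, 2 held at an adjusted p of 0.01, and 3 held with the cumulative minimum of Benjamini-Hochberg. Quantile normalization lowered the median difference of the fitted genes to 0.13, against 0.25 as deposited. Relative to the median, Smo was then at 0.46, against 0.43, and Disp1 at 0.04, against 0.12. Mycn was at 0.27, against 0.23, and Ccnd1 at 0.31, against 0.28. Gas1 was at 0.24, against 0.23, and Sufu at 0.19, against 0.16. The replicate block gave the same differences, Smo 0.68 with SE 0.20 instead of 0.16, and called 0 of the 6 and 20 fitted genes instead of 6. The labels share replicate numbers only, and same-numbered samples deviated with a correlation of -0.0934, so the numbers were not taken as pairs. The authors' log2 fold changes run lower than the log2 ratio of group means by a median of 0.076, and for Mycn that ratio was 0.51, against 0.44. 2 samples a group limit all errors given.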
